A study of Mus musculus with 14 samples.

Results

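The insulin-like growth factor (IGF) genes measured here were the ligands Igf1 and Igf2, the receptors Igf1r and Igf2r, and the binding proteins Igfbp2, Igfbp3, Igfbp4, Igfbp5 and Igfbp7. Gpc3 was added to them, which encodes the cell-surface growth regulator glypican-3. They were chosen by name: every probe set with 1 of these 10 symbols as its single gene symbol in the platform annotation was used. That gave 28 of 45037 probe sets and 10 of 18193 genes. A probe set shared by Igf2r and Airn carried several symbols and was left out. The 14 Affymetrix arrays held RNA of fetal mouse ovaries: 3 of controls and 3 of knockouts on the embryonic day written E14.5, then 4 of each on E16.5. The knockout was of Coup-tfII (symbol Nr2f2), an orphan nuclear receptor, in embryos labelled WT1-CreERT2; COUP-TFII flox/flox. All groups came from dams given tamoxifen at E11.5 and E12.5 (2 mg per 10 g of weight), which switches on a Cre recombinase driven by Wt1. The mice were a cross of C57BL/6, Swiss Webster and B6129SF1/J. The genotype of the ovaries labelled control, including whether they carried Cre, and any pooling of ovaries for an array are not given in the sources used for this text. Wt1 is active in somatic cells of the gonad, so germ cells are not an intended target. The labels call the arrays of a group biological replicates.

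IGF1 and IGF2 are secreted growth factors that signal through the receptor tyrosine kinase IGF1R. IGF2R has no such kinase: it carries IGF2 to lysosomes, where it is degraded. IGF binding proteins hold the ligands outside the cell and can limit or prolong their action, IGFBP7 binds IGFs weakly, and glypican-3 is a heparan sulphate proteoglycan whose loss causes fetal overgrowth. Igf2 is imprinted and expressed from the paternal allele, Igf2r from the maternal allele in most tissues, and in the fetal gonad this family is known for its part in growth and in the somatic cells that surround the germ cells.

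Each value is a MAS5 signal, a linear intensity scaled so that the trimmed mean of every array is 500. Changes are differences of log2(signal + 16), knockout minus control unless stated, and understate the change of dim probe sets. A gene was represented by its brightest probe set and tested with limma across 12406 genes, with Benjamini-Hochberg adjusted p under 0.05 as the threshold, and all 10 genes were among those tested. The number of arrays limits the precision. The deleted gene was read by 6 probe sets of Nr2f2. At E16.5 the knockout arrays lay below every control on 5 of the 6, and on the brightest they held 2053 to 3359 against 3819 to 4950. At E14.5 that probe set held 217, 493 and 422 in the arrays labelled control 1, 2 and 3, and 155, 252 and 267 in the knockouts. The array labelled control 1 lay within the knockouts there and on 1436475_at (362 against 280 to 438), and below them on 1416159_at (19.3 against 34.6 to 79.1) and 1444229_at (16.1 against 25.7 to 40.7), so on these 4 probe sets the deleted gene went against its label. On 1416160_at the 3 controls (268 to 350) lay above the 3 knockouts (161 to 259), and on 1431237_at, a dim probe set, the groups overlapped. The E14.5 difference of each of the 10 genes on its brightest probe set is therefore given with and without that array. Other results that use E14.5 arrays include it unless stated. Ovary genes were present (Foxl2, a pre-granulosa cell regulator, at 1152 to 2695 and Ddx4, a germ cell RNA helicase, at 1097 to 9140), and Amh, a Sertoli cell hormone of the testis, reached no more than 12.46. Marker genes of the ovary's own surface layer and of neighbouring tissue moved with genotype. The summed signal of 7 surface epithelium markers was 7911 to 8255 in E14.5 controls against 10324 to 13434 in knockouts (8750 to 10075 against 11053 to 15606 at E16.5). That of 6 adrenal cortex markers was 395 to 710 against 773 to 1039 at the earlier stage and 326 to 433 against 791 to 1139 at the later. Sums of 4 mesonephric and 5 smooth muscle markers also lay apart at E14.5 and were higher in knockouts. Not every gene followed the sum of its list. Krt8 and Krt18 of the surface epithelium differed by -0.16 and -0.03 at E16.5. At E14.5 the mesonephric Gata3 and Lhx1 differed by -0.07 and -0.59, and the adrenal Cyp21a1 by -0.06, the last 2 below the filter. The other measured genes of these lists were positive at those stages. The sum of 7 interstitial markers overlapped at both stages, but its genes moved differently. At E16.5 Pdgfra (-1.25 ± 0.19, limma adjusted p = 0.00457) and Wnt5a (-1.34 ± 0.20, adjusted p = 0.00442) were lower in knockouts. In the same arrays Tcf21 (-0.83 ± 0.23) lay below every control without passing. Dcn and Col1a1 differed by 0.39 and 0.21 there, Lum by -0.13 and Col3a1 by -0.00024. At E14.5 Dcn, Lum, Col1a1 and Col3a1 differed by 0.63, 0.68, 0.61 and 0.12. Wnt5a, Pdgfra and Tcf21 differed by -0.71, -0.30 and -0.27 at that stage, and none of the 7 passed at E14.5. The sum of 8 pre-granulosa markers was lower in E16.5 knockouts (15742 to 18996 against 19072 to 20846). None of the 8 passed in limma there. Irx3 (0.21), Bmp2 (0.14) and Lgr5 (0.03) differed the other way, and the other genes of the list were negative. Sums of the germ cell, endothelial and macrophage markers overlapped at both stages. At E16.5 C1qb (0.82 ± 0.20) and Plvap (1.18 ± 0.21) passed as higher in knockouts and Tek (-0.68 ± 0.15) as lower. At E14.5, 4 of 7 germ cell markers had an unadjusted limma p under 0.05, all lower in knockouts, beside 8.55% of all genes tested. None of these 7 passed, and Sycp3 differed by 0.12. The part of these shifts in the results was not tested. In whole ovaries, fewer cells of a type and less RNA per cell cannot be told apart.

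At E14.5 Gpc3 was higher in Nr2f2 knockout ovaries, the only member of the 10 to pass the test. Igfbp3, Igf1 and Gpc3 were the 3 members whose 3 knockout arrays all lay above all 3 controls. To show the regulatory sequence next to these genes, the 250 bases before the start of 1 annotated transcript of each are printed 5′ to 3′ on the gene's own strand, from RefSeq (GRCm38.p6). The windows are chrX:52613975-52614224 (minus strand) for Gpc3, chr11:7213924-7214173 (minus strand) for Igfbp3 and chr10:87860861-87861110 (plus strand) for Igf1. The Igfbp3 and Igf1 windows lie within the span annotated for the gene as a whole. Capitals mark the letters AGGTCA or, on the other strand, TGACCT, the core motif of many nuclear receptors, COUP-TFs included.
Gpc3: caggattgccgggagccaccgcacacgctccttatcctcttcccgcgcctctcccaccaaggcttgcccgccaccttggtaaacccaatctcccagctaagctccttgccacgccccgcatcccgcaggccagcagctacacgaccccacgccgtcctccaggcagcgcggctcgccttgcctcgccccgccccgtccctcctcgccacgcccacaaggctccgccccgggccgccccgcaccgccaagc
Igfbp3: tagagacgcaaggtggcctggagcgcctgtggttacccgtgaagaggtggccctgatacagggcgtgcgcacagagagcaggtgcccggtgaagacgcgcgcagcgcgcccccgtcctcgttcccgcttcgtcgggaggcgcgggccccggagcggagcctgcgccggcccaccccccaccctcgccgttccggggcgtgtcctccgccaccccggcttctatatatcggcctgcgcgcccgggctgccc
Igf1: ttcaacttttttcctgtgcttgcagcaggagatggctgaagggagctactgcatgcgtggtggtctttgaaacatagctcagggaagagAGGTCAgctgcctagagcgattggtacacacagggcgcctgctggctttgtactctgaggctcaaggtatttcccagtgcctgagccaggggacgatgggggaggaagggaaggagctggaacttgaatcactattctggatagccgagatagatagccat
The motif was found in the Igf1 window, at position -161 from that start, and not in these windows of Gpc3 or Igfbp3. Over all 10 genes it lay in 4 of 14 windows, those of Igf1, Igf2 (position -234), Igf1r (position -86) and Igf2r (position -11). It lay in 4607 of all 32851 windows of the same length. A match describes letters and is not a bound site.

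Gpc3 lies at chrX:52272426-52613974 (GRCm38.p6) and was read by 1 probe set, 1450990_at. At E14.5 its signal was 3442, 3083 and 2933 in controls 1 to 3, and 4740, 5350 and 4551 in knockouts 1 to 3. The groups did not overlap. The change was 0.63 ± 0.11 (SE, 3 against 3 arrays, 95% interval 0.40 to 0.85), with a limma adjusted p of 0.0473. It was 1 of 5 genes, or 0.0403% of those tested, that passed at E14.5, all 5 of them higher in knockouts. Without knockout 3, 179 genes passed, 106 higher and 73 lower, and without the array labelled control 1, 23 passed, 20 higher and 3 lower. The adjusted p of Gpc3 lay close to the threshold. It was 0.0114 without knockout 3 and 0.0245 without the array labelled control 1 (change 0.69 ± 0.12), and the change was no longer called when any other single array of the 14 was left out (largest adjusted p 0.262, without knockout 2). The call was also lost after quantile normalization, median centring or an offset of 64.

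**Figure D1:**
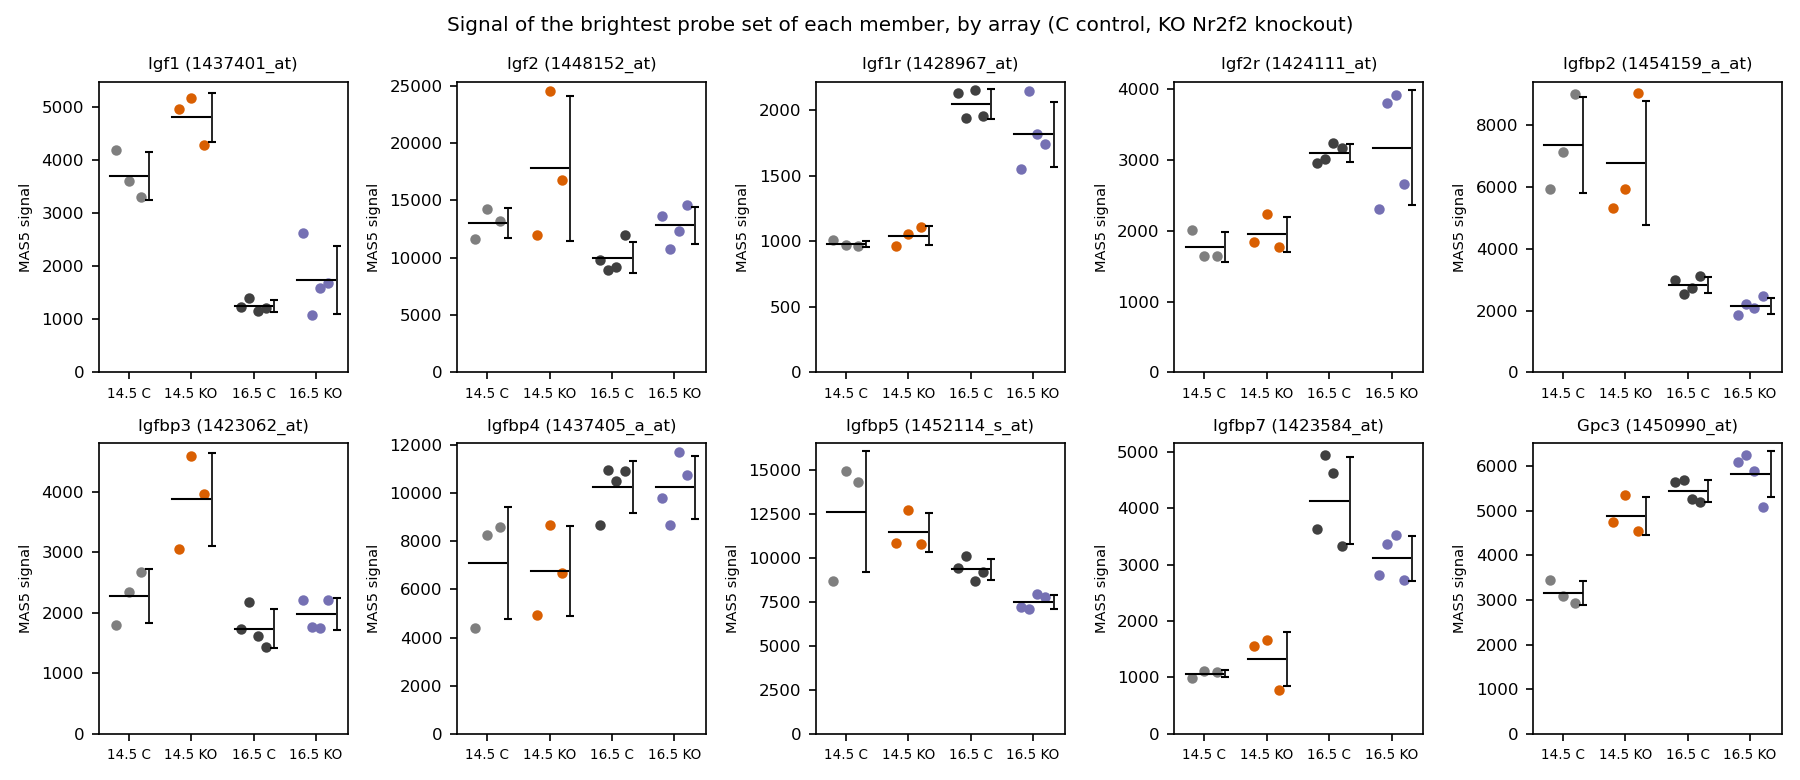
MAS5 signal (linear axis from 0) of the brightest probe set of each of the 10 genes, 1 point per array, by stage and genotype, with the group mean as a line and the SD as a bar. Gpc3 at E14.5 sits at 2933 to 3442 in controls and 4551 to 5350 in knockouts, while most other genes overlap between genotypes at both stages.

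Igfbp3 (chr11:7206086-7215498), a carrier of IGFs in the circulation and the extracellular space, had the largest difference at E14.5 among the 10 genes and did not pass the test. On probe set 1423062_at the controls held 1804, 2346 and 2679 and the knockouts 3061, 4598 and 3965. All 3 knockouts lay above all 3 controls. The difference was 0.76 ± 0.18 (SE), with a limma adjusted p of 0.224 (0.61 ± 0.19 without the array labelled control 1). On its second probe set, 1458268_s_at, the controls held 1297, 1273 and 1341 and the knockouts 1416, 2260 and 1621, again without overlap, with a difference of 0.40 ± 0.16.

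The ligands had positive differences at E14.5 that did not pass the test. Igf1 (chr10:87858265-87937047), the growth-promoting ligand also made in response to growth hormone after birth, held 4196, 3612 and 3303 in controls and 4955, 5176 and 4282 in knockouts on 1437401_at. The groups did not overlap, knockout 3 lying just above the array labelled control 1. The difference was 0.38 ± 0.21 (SE), with a limma adjusted p of 0.648, and 0.47 ± 0.24 without that array. On 1434413_at the controls held 3316, 4753 and 4094 and the knockouts 5271, 6386 and 5477, also without overlap. All 4 Igf1 probe sets differed in the same direction, by 0.38 to 0.57, with adjusted p of 0.414 to 0.670 over every probe set. Igf2 (chr7:142650768-142666816), the main fetal ligand, held 11604, 14233 and 13244 in controls and 12014, 24570 and 16775 in knockouts on 1448152_at. Knockout 1 lay within the controls and knockout 2 far above them, and the difference of 0.39 ± 0.19 (limma adjusted p = 0.596) was 0.13 without knockout 2 and 0.31 without the array labelled control 1.

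Genes of the liver differed between these same arrays. The summed signal of Alb, Afp, Apoa2 and Ttr was 902, 457 and 907 in the controls, 13953 in knockout 1, 10393 in knockout 2 and 926 in knockout 3. Knockouts 1, 2 and 3 all lay above every control for Gpc3, Igfbp3 and Igf1, and the part of liver RNA in these differences was not tested. With knockouts 1 and 2 both left out, an alternative chosen after seeing the data, 0 of the 10 genes passed in limma; Gpc3 was then at 0.53 ± 0.15 (adjusted p = 0.831), Igfbp3 at 0.82 ± 0.24 and Igf1 at 0.22 ± 0.31, with knockout 3 assumed to vary like the other groups. Igfbp1, a binding protein made mainly by liver, lay below the filter on mean log2 signal and was not tested. Its probe set held 1.9 to 4.3 in controls and 60.2, 111 and 20.6 in the 3 knockouts, so its highest value was also in a knockout with a high liver sum. In the E16.5 arrays it held 60.9 to 137 in controls and 64.7 to 217 in knockouts, and the liver sum, at 1551 to 12858 and 2752 to 11119, overlapped between genotypes there.

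**Figure D2:**
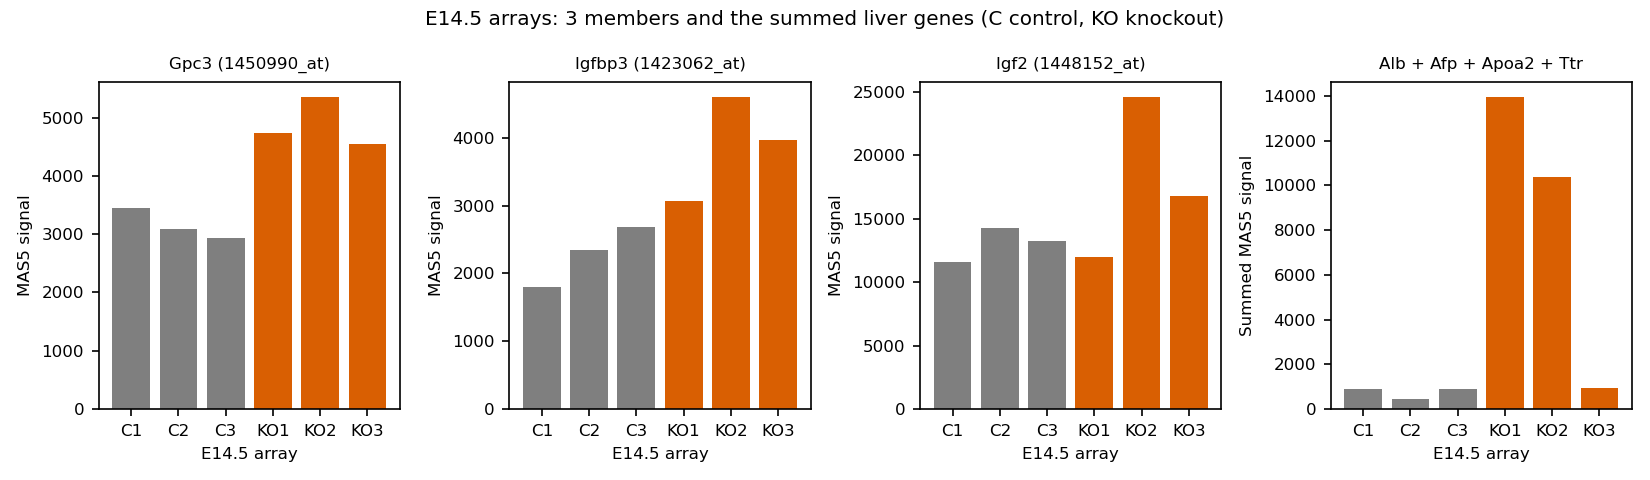
MAS5 signal of Gpc3, Igfbp3 and Igf2 and the summed signal of 4 liver genes in each E14.5 array (bars from 0, C control, KO knockout). Knockouts 1 and 2 hold liver sums of 13953 and 10393, knockout 3 holds 926, and all 3 knockouts exceed the controls for Gpc3 and Igfbp3.

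On their brightest probe sets the other 6 genes overlapped between genotypes at E14.5. The receptor Igf1r, on 1428967_at, differed by 0.09 ± 0.12 and Igf2r, on 1424111_at, by 0.14 ± 0.17. Igfbp2 differed by -0.14 ± 0.18, Igfbp4 by -0.05 ± 0.22, Igfbp5 by -0.10 ± 0.15 and Igfbp7 by 0.24 ± 0.22 (SE each), and the smallest limma adjusted p of the 6 was 0.815. The array labelled control 1 was low for Igfbp4 and Igfbp5: Igfbp4 held 4417 there against 8242 and 8590 in the other controls, and Igfbp5 held 8660 against 14925 and 14273. Without that array the differences were -0.36 for Igfbp5, -0.35 for Igfbp4, -0.28 for Igfbp2, 0.23 for Igf2r, 0.19 for Igfbp7 and 0.10 for Igf1r. Igfbp7 was split within the knockouts, at 1559 and 1656 in knockouts 1 and 2 and 775 in knockout 3, against 997 to 1106 in controls. Igfbp2 held 5940, 7126 and 8994 in controls and 5312, 5941 and 9050 in knockouts, so each group spanned much the same range. Igf1r held 967 to 1006 in controls and 962 to 1112 in knockouts, and Igf2r 1647 to 2007 and 1769 to 2230. Of the 5 Igf1r probe sets, 1452982_at had all knockouts (1125, 1143 and 1204) just above all controls (1104, 1080 and 1075), a difference of 0.09 ± 0.14. Probe set 1452108_at differed the other way, by -0.70 ± 0.24 (adjusted p = 0.428 in limma over every probe set), with controls at 157, 178 and 219 and knockouts at 114, 58.6 and 172. Over the 10 genes, 7 differences were positive, and the median was 0.19 beside 0.03 over all genes tested. Groups lay apart with the knockouts higher in 3 of the 10 and in 7.84% of all genes tested. Over single probe sets, 20 of 28 differences were positive, where the median over all probe sets was 0.02. In limma 0 of the 28 passed, where 0.0372% of all 34945 passed.

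**Figure D3:**
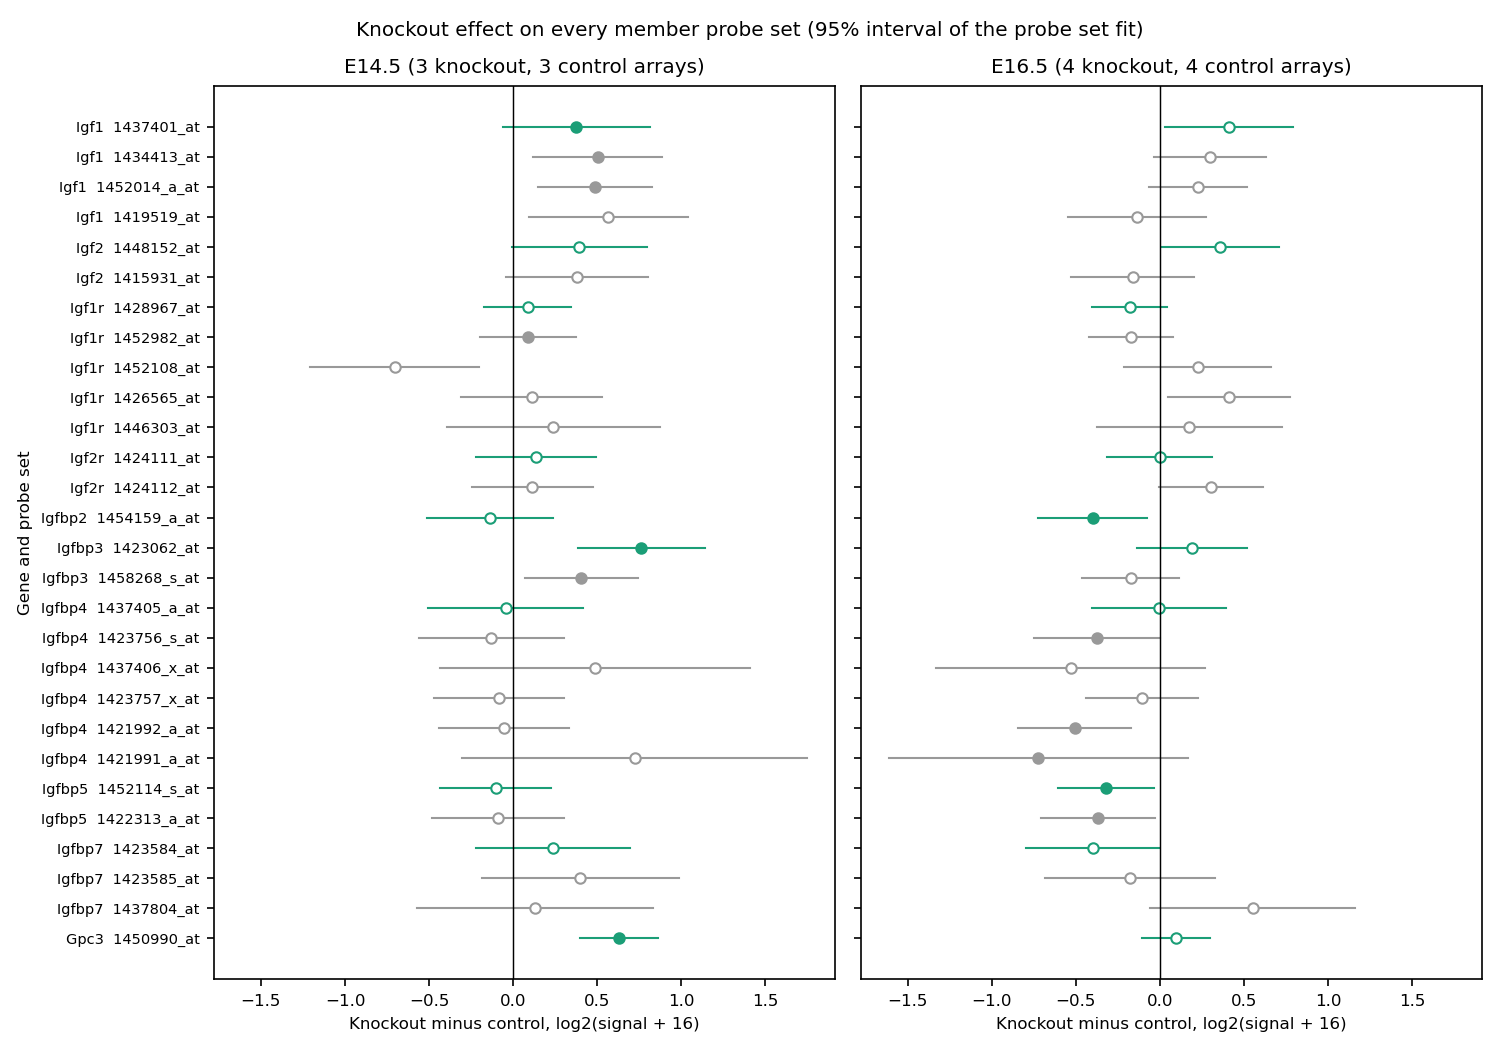
Knockout minus control difference of log2(signal + 16) for all 28 probe sets at E14.5 and E16.5, with 95% intervals of the limma fit over every probe set; green is the brightest probe set of a gene, and filled points mark groups that did not overlap. At E14.5 the filled points, of Igf1, Igf1r, Igfbp3 and Gpc3, lie to the right. At E16.5 those of Igfbp2, Igfbp4 and Igfbp5 lie to the left. Several filled points are probe sets of the same gene, and the share of filled points over all probe sets is not given here.

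At E16.5 none of the 10 genes passed the test, while 1.42% of all genes tested did (120 genes, or 0.967%, higher and 56, or 0.451%, lower). By limma's unadjusted p, 4 of the 10 were under 0.05, as were 18.3% of all genes tested: the 2 ligands with positive differences, and Igfbp2 and Igfbp5 with negative ones. The last 2, neighbours on chromosome 1, were the members whose groups did not overlap. Igfbp2 (chr1:72824480-72852474), an abundant fetal binding protein, held 2984, 2529, 2742 and 3112 in controls and 1845, 2208, 2088 and 2481 in knockouts. The knockouts all lay below the controls, the highest of them just under the lowest control. The difference was -0.40 ± 0.16 (SE, 4 against 4 arrays), with a limma adjusted p of 0.186. Igfbp5 (chr1:72858065-72874865), a binding protein that also attaches to extracellular matrix, held 9426, 10090, 8689 and 9175 in controls and 7203, 7069, 7942 and 7753 in knockouts on 1452114_s_at. Its difference was -0.32 ± 0.13, with an adjusted p of 0.217 in limma. On the second probe set, 1422313_a_at, controls held 11952, 14701, 12176 and 11675 and knockouts 9242, 9580, 10166 and 10058. Here too the groups did not overlap.

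Igfbp4, a binding protein cleaved by the protease PAPP-A, depended on which of its 6 probe sets was read. The brightest, 1437405_a_at, differed by -0.0051 ± 0.19 at E16.5, with controls at 8660 to 10947 and knockouts at 8678 to 11711. All 6 differences were negative, and on 3 of them the knockouts lay below every control. The 6 probe sets read the same gene in the same arrays and are not independent. The share of such probe sets over the whole array is not given here. On 1421992_a_at the controls held 3344 to 3954 and the knockouts 2540 to 2755, a difference of -0.51 ± 0.16 with a limma adjusted p of 0.178 over every probe set. Igfbp7 overlapped between genotypes, with controls at 3334 to 4946, knockouts at 2730 to 3529 and a difference of -0.40 ± 0.19 (limma adjusted p = 0.281). Igfbp3, at 1441 to 2182 in controls and 1743 to 2210 in knockouts, differed by 0.19 ± 0.16, with an interval of -0.14 to 0.52. Its second probe set, 1458268_s_at, differed by -0.17 ± 0.14, with controls at 1141 to 1603 and knockouts at 1096 to 1342.

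The ligands differed among the E16.5 knockouts, and none of their differences passed. Igf1 held 1229, 1406, 1152 and 1210 in controls and 2625, 1089, 1585 and 1687 in knockouts on 1437401_at. Knockout 2 lay below every control and the other 3 knockouts above every control. The difference was 0.41 ± 0.18, with a limma adjusted p of 0.242, and without knockout 2 it was 0.61 with an adjusted p of 0.0367. The other 3 Igf1 probe sets differed by 0.30 ± 0.16 (1434413_at), 0.23 ± 0.14 (1452014_a_at) and -0.14 ± 0.20 (1419519_at), and on each of them the groups overlapped and knockout 2 did not lie below every control. Igf2 held 9814, 8961, 9216 and 11957 in controls and 13602, 10796, 12290 and 14574 in knockouts on 1448152_at, a difference of 0.36 ± 0.16 (adjusted p = 0.257 in limma). On its other probe set, 1415931_at, the difference was -0.16 ± 0.17, with controls at 14169 to 16589 and knockouts at 11589 to 15559. The receptor Igf2r showed a similar split. On 1424111_at the controls held 2957 to 3241 and the knockouts 2300, 3802, 3918 and 2661, so that knockouts 1 and 4 lay below all controls and knockouts 2 and 3 above them. On 1424112_at the controls held 1299 to 1654, knockouts 1 and 4, at 2204 and 2034, lay above them, and knockouts 2 and 3 were at 1663 and 1513. Igf1r held 1937 to 2154 in controls and 1551 to 2143 in knockouts on 1428967_at, a difference of -0.18 ± 0.11. On 1426565_at it differed by 0.41 ± 0.17, with controls at 189, 205, 222 and 265 and knockouts at 267, 225, 322 and 396, which overlapped through knockout 2.

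Knockouts 1 and 4 at E16.5 also stood apart on the array's own control probe sets. The log2 difference between the 3′ and 5′ probe sets of the Gapdh control, which depends on how complete the labelled copies are, was 1.67 to 1.83 in the E16.5 controls and 0.94, 1.63, 1.58 and 1.32 in knockouts 1 to 4. Every knockout thus lay below every control. The signal of the bioB hybridization control was 4555 to 5909 in the controls and 10843, 6397, 5108 and 18373 in knockouts 1 to 4. With both arrays left out, the differences at E16.5 were 0.08 for Igf1, 0.21 for Igf2 and 0.32 for Igf2r, while those of Igfbp2 (-0.40) and Igfbp5 (-0.32) moved little. With the Gapdh difference as a covariate, Igf1 was at 0.02 and Igf2r at 0.40, and Igfbp2 and Igfbp5 were at -0.38 and -0.47. None of these passed in limma. Because the Gapdh difference lay apart between genotypes at E16.5, the fit could only partly separate it from genotype, and no conclusion is drawn from the fitted values. Over the 10 genes at E16.5, 6 differences were negative, and the median was -0.0029 beside 0.05 over all genes tested. The knockouts lay below every control in 2 of the 10 and in 4.22% of all genes tested. Over single probe sets, 0 of 28 passed in limma, beside 0.572% of all probe sets.

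**Figure D4:**
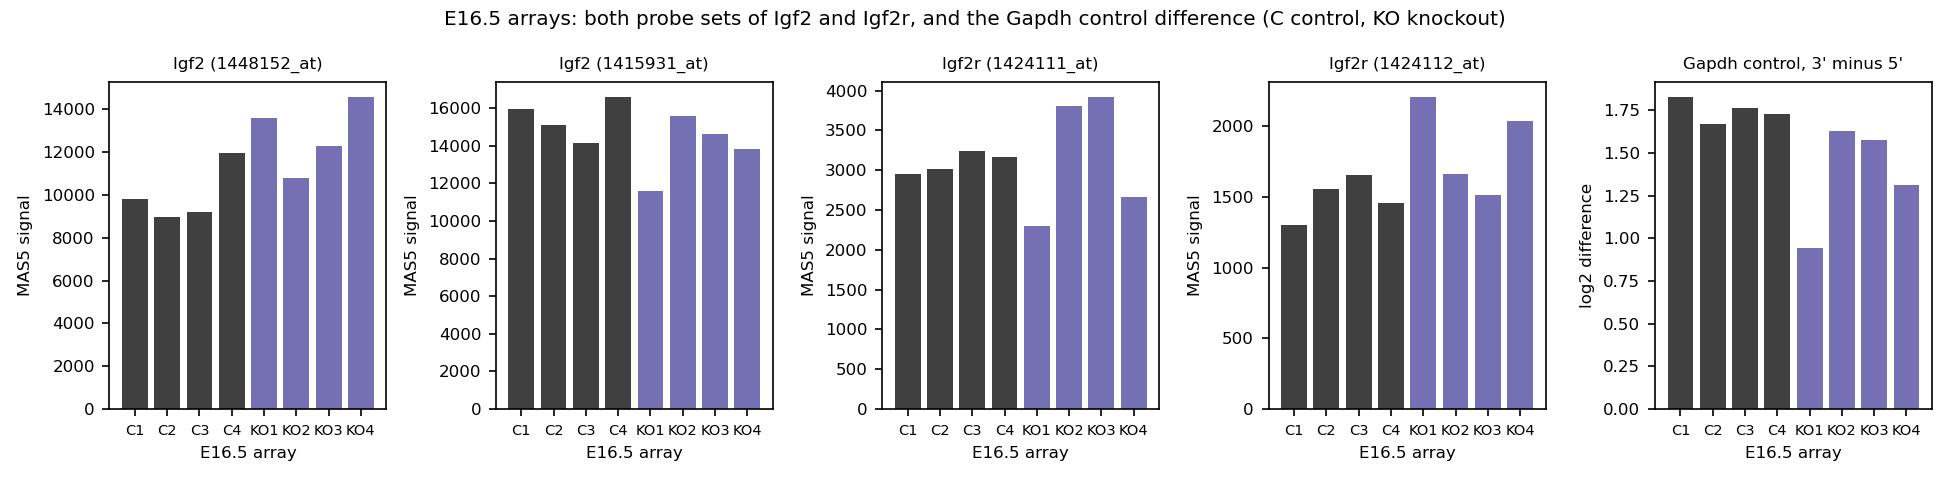
MAS5 signal of both Igf2 and both Igf2r probe sets, and the log2 difference of the Gapdh control, in each E16.5 array (bars from 0, C control, KO knockout). Knockouts 1 and 4 hold the lowest Gapdh differences, 0.94 and 1.32, the lowest signals of Igf2r on 1424111_at and the highest on 1424112_at.

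The change of Gpc3 at E14.5 had no counterpart past the threshold at E16.5, and the difference between the stages was tested directly. Gpc3 at E16.5 held 5632, 5674, 5252 and 5185 in controls and 6079, 6249, 5888 and 5083 in knockouts. The groups overlapped through knockout 4, and the difference was 0.10 ± 0.09, with a 95% interval of -0.10 to 0.29. The knockout effect at E16.5 minus that at E14.5 was -0.53 ± 0.14 for Gpc3, with a limma adjusted p of 0.398, so the stages were not shown to differ. For Igfbp3 this value was -0.57 ± 0.24 and for Igfbp7 -0.64 ± 0.29. Of the 10 genes, 0 passed this test in limma and 3 had an unadjusted p under 0.05, beside 0% of all genes tested that passed and 8.91% with an unadjusted p under 0.05.

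Among control ovaries, 8 of the 10 genes differed between E16.5 and E14.5, where 64.4% of all genes tested did. On their brightest probe sets Igfbp7 (1.92 ± 0.21), Igf1r (1.05 ± 0.11), Igf2r (0.81 ± 0.16), Gpc3 (0.78 ± 0.10) and Igfbp4 (0.59 ± 0.21) were higher at E16.5, as were 28.5% of all genes tested. Igf1 (-1.55 ± 0.20), Igfbp2 (-1.35 ± 0.17) and Igfbp5 (-0.39 ± 0.14) were lower, as were 35.9%, while Igf2 (-0.39 ± 0.18) and Igfbp3 (-0.38 ± 0.17) did not pass in limma. The median over the 10 genes was 0.10 beside -0.09 over all genes tested, and of the genes called, 44.3% were higher at E16.5, or 26.5% after centring each array on its median. Without the array labelled E14.5 control 1, Igfbp4 was at 0.28 and no longer passed (adjusted p = 0.184 in limma). Igfbp5 no longer passed without control 2 or control 3 of E14.5 or control 3 of E16.5.

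Of the 28 probe sets, 23 passed between stages, beside 55.1% of all probe sets, and for several genes the direction turned on the probe set. Igf2 on 1448152_at held 11604 to 14233 in E14.5 controls and 8961 to 11957 in E16.5 controls, whereas on 1415931_at the ranges were 165.3 to 269 and 14169 to 16589, a difference of 6.06 ± 0.19. Igfbp5 on 1422313_a_at went from 278 to 556 in the earlier controls to 11675 to 14701 in the later, a difference of 4.94 ± 0.17, opposite to its brightest probe set. Igf1 on 1452014_a_at went from 356 to 595 up to 3222 to 3730, also opposite to its brightest probe set. Of the 8 members with several probe sets, Igf1, Igf1r, Igf2r and Igfbp5 had probe sets called in opposite directions. Among all 6143 genes with several probe sets above the filter, 31% had such opposite calls, and 0.472% had a spread between probe sets at least as wide as Igf2's. Gpc3 and Igfbp2 had a single probe set each, so no such check was possible for them. The Gapdh 3′ minus 5′ difference was -0.29 ± 0.20 (SD, n = 3) in E14.5 controls and 1.75 ± 0.07 (SD, n = 4) in E16.5 controls, with no overlap. The other 3 controls of this kind went the opposite way: actin from 0.86 to 0.24, the transferrin receptor from 1.71 to -1.34 and pyruvate carboxylase from 2.37 to 1.94 in group means. Stage and the processing of the arrays cannot be told apart here, and with the Gapdh difference as a covariate, the only one of the 4 fitted, 0 of the 10 genes passed between stages in limma. Because that covariate lay apart between the stages, the fit could hardly separate it from stage, and no conclusion is drawn from the lost calls. No gene had opposite calls among its probe sets in either knockout comparison, each made within a stage and with few calls.

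**Figure D5:**
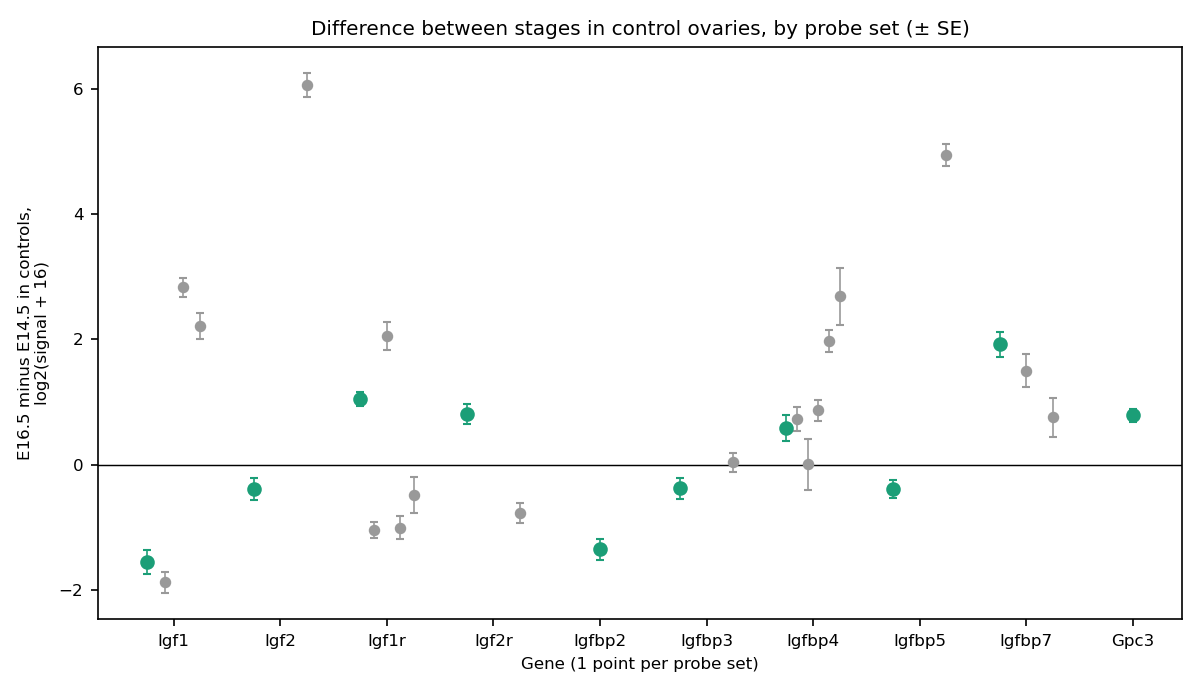
Difference of log2(signal + 16), E16.5 minus E14.5 in control ovaries, for each of the 28 probe sets by gene, with the SE as bars; green is the brightest probe set of a gene and grey the others. Probe sets of Igf1, Igf2, Igf1r, Igf2r, Igfbp3 and Igfbp5 lie on both sides of 0, and a probe set of Igf2 reaches 6.06.

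The wider pathway was read from 56 other genes, of which 50 were on the array and 43 bright enough to test: other carriers, proteases of the binding proteins, other glypicans, receptor adaptors, the PI3 kinase, AKT, mTOR and FOXO genes, and regulators of IGF transcripts. At E14.5, 0 of the 43 passed in limma and 4 had an unadjusted p under 0.05, as had 8.55% of all genes tested. Igfbp6, a binding protein that prefers IGF2, differed by 0.66 ± 0.42 there. At E16.5, 3 of the 43 passed, 2 of them higher and 1 lower in knockouts, beside 0.967% higher and 0.451% lower among all genes tested. Htra1, a secreted serine protease that can cleave IGF binding proteins, rose: controls held 2487, 2134, 2714 and 2063 and knockouts 5579, 3903, 4159 and 5591. The groups lay well apart, and the change was 1.02 ± 0.19 with a limma adjusted p of 0.0136 (0.0556 without knockout 1). Its other probe set differed by 1.26 ± 0.19, also without overlap.

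Igf2bp1, an RNA-binding protein named for its binding to the Igf2 transcript, rose at E16.5 on 1 of its 4 probe sets. On 1455223_at the controls held 166, 135, 175 and 179 and the knockouts 302, 312, 342 and 312. That change was 0.90 ± 0.18 with a limma adjusted p of 0.016, and the other 3 probe sets differed by 0.01 to 0.05. The call was lost without control 2 (adjusted p = 0.0607 in limma) or knockout 1 (0.053). Shc1, an adaptor of receptor tyrosine kinases, fell at E16.5. Controls held 1619, 1612, 1470 and 1683 and knockouts 1058, 1178, 1246 and 1064, without overlap. The change was -0.49 ± 0.11 with a limma adjusted p of 0.0322, and the other probe set differed by -0.08 ± 0.15. The call was lost when any control or knockout 1 or 4 of E16.5 was left out (largest adjusted p 0.109, without knockout 1). The kinases, phosphatases and transcription factors downstream of the receptor, 18 genes tested, gave 0 calls at either stage in limma, with 0 of unadjusted p under 0.05 at E14.5 and 4 at E16.5 (18.3% of all genes tested at E16.5). Between stages in controls, 17 of the 43 were higher and 9 lower at E16.5, beside 28.5% higher and 35.9% lower among all genes tested.

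Over the 14 arrays, with each stage centred on its own mean, the genes whose log2 signal followed Gpc3 most closely were Gas7 (r = 0.90), Pmaip1 (r = 0.89) and Tapt1 (r = 0.87), and the most opposite was Nsd3 (r = -0.87). These are the extremes among 12405 genes over arrays that share their genotype groups and are given as a description.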

How the data were processed

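Ovary RNA was extracted with a PicoPure kit and labelled by 3′ IVT Express for the 14 arrays, per the labels' protocols. The authors deposited linear intensity signals; MAS5 and Affymetrix Expression Console are named, per the submitters' processing notes, and their versions are not given there. Trimming 2% at each end left a mean of 500 on every array, so global differences in RNA amount were scaled out.

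Values were converted to log2(signal + 16) without normalizing again. A single gene symbol was given for 34945 of 45037 probe sets, several for 932 and none for 9160. The probe set of highest mean stood for its gene, and 12406 genes above the 40th percentile of mean log2(signal + 16), which corresponds to a signal of about 62.0, were tested. The limma 3.58.1 fit (R 4.3.3, version 1.17.8 of data.table) had 4 groups over all 14 arrays, lmFit and a trended eBayes; two-sided p-values were Benjamini-Hochberg adjusted. A second fit covered all 34945 probe sets. Code was tested on simulated data. Python 3.11.15 and matplotlib 3.10.9 drew the figures.

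Every member was described. Other pathway genes were named where they passed at E14.5 or E16.5; Igfbp1 and Igfbp6 were named after their values were seen. The 3 genes most like and the 3 most opposite to each member were computed, and those of Gpc3 are given in part. The members and lists were chosen with earlier results of these data known. Whether same-numbered control and knockout arrays deviate together was checked. Their correlations ran from -0.05 to 0.16 at E14.5 and from -0.0022 to 0.43 at E16.5. Those of differently numbered arrays ran from -0.16 to 0.14 and from -0.30 to 0.25. The knockout of the same number was the best match for 1 of 3 controls at E14.5 and 2 of 4 at E16.5. Whether the numbers pair the samples was not settled by this, and the main fit took the arrays as unpaired. Alternatives were other offsets, scalings, filters, probe set rules, left-out arrays, a replicate block and a Gapdh covariate. The p-values measure the spread between these arrays. Promoter sequences came from RefSeq; array probe positions were not used here.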

Additional observations from a re-analysis of the deposited data

Results flagged for a closer look

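Among 56 sets of 4 arrays, each a member probe set in 1 group at E16.5, 3 held an array far from the other 3 by Dixon's test. Chance gives about 1 in 20 such sets. On Igfbp4 probe set 1421992_a_at, control 1 held 3344 against 3848 to 3954 in the other controls, and it still lay above all knockouts. On Igfbp7 probe set 1423585_at, knockout 2 held 66.6 against 107 to 116. On Igfbp7 probe set 1437804_at, knockout 3 held 22.8 against 68.5 to 79.3. Both of these Igfbp7 probe sets were dim.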

How the results depend on the processing

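At E14.5 the count of members passing in limma, 1 (Gpc3) as reported, was 0 with an offset of 64, quantile normalization, median centring, a 60th percentile filter, every probe set tested, eBayes without a trend, E14.5 arrays alone, both E16.5 knockouts 1 and 4 left out, both E14.5 knockouts 1 and 2 left out, or the Gapdh covariate; it ranged from 0 to 1 with single arrays left out. It stayed 1 with no filter, the mean of probe sets or the replicate block. Over all genes, the 5 called at E14.5 became 0 with the offset, quantile, median, 60th percentile, no-trend, single-stage, paired left-out and Gapdh alternatives, 9 with no filter, 13 with every probe set, 9 with the replicate block and 0 to 179 with single arrays left out (179 without knockout 3, of which 59.2% were higher). At E16.5 members passing ranged from 0 to 1 (Igf1, without knockout 2), and genes, 176 as reported, were 278 with quantile normalization, 293 with the replicate block, 16 without knockouts 1 and 4, 18 with the Gapdh covariate and 43 to 494 with single arrays left out. The replicate block changed no member's call and was not fitted between stages. Between stages in controls, members passing fell from 8 to 0 and genes from 7993 to 701 with the Gapdh covariate, 19245 probe sets passed on their own, and single arrays left out gave 7 to 10 members. The Gapdh difference lay apart between the stages, so that covariate could hardly be separated from stage. It also lay apart between genotypes at E16.5, where it could only partly be separated from genotype. Genes whose knockout effect differed between stages numbered 0, 1 with no filter and 0 to 30 with single arrays left out. Of the genes called between stages, 37.6% were higher with quantile normalization, 55.7% with the mean of probe sets and 53.1% with every probe set; the median over all genes was -0.09 as reported, -0.21 after quantile normalization and -0.43 after median centring.

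Log2 changes that turned direction were as follows. With quantile normalization, Igf2 (0.13) and Igfbp5 (0.10) between stages. With the mean of probe sets, Igf1r (0.093) and Igf2r (0.15) at E16.5, Igf1 (0.40), Igf2 (2.84) and Igfbp5 (2.27) between stages, and Igf1 (-0.28), Igf1r (0.13) and Igfbp4 (-0.52) in the difference of knockout effects. Without E16.5 knockouts 1 and 4, Igf2r (0.32) at E16.5, and Igf1 (-0.30) and Igf2r (0.18) in that difference. Without E14.5 knockouts 1 and 2, Igfbp2 (0.32) and Igfbp7 (-0.45) at E14.5, and Igfbp7 (0.054) in the difference. With the Gapdh covariate, Igf1r (0.012), Igf2r (0.40) and Igfbp3 (-0.057) at E16.5, Igf1 (0.56), Igf2 (0.34), Igf2r (-1.33), Igfbp3 (0.95) and Igfbp5 (0.43) between stages, and Igf1 (-0.32) and Igf2r (0.22) in the difference. The turns between stages with this covariate cannot be told apart from its near tie to stage. Those at E16.5 and in the difference cannot be told apart from its tie to genotype at E16.5. With single arrays left out, Igf2r at E16.5 ran from -0.11 to 0.14, and in the difference Igf2 ran from -0.28 to 0.23 and Igfbp5 from -0.35 to 0.038. For genes other than members, Htra1 was no longer called without E16.5 knockouts 1 and 4 or with the Gapdh covariate, Igf2bp1 and Shc1 in these and with the mean of probe sets, and Shc1 with every probe set. The causes were not tested. Of 506 other settings of a result, 451 kept its direction and side of the threshold, as did 567 of 602 with a single array left out; a sign change of a value within 1 SE of 0 on both sides was not counted.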
